A study of Mus musculus with 88 samples.

Results

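Cell cycle genes are described here in the blood of pristane-treated, untreated and spontaneously diseased SNF1 mice. They were 38 genes chosen by symbol, of which 26 act mainly in mitosis, 10 in DNA replication, and Foxm1 and E2f1 are transcription factors that drive cell cycle genes. Each gene was read from the 1 probe set that is assigned to it alone and has the highest mean over all 88 arrays. Such a probe set was found for 37 of the 38, out of 17097 genes measured in all, and the expression of Ccnb1 is not analysed here. All mice were female SNF1, the F1 cross of SWR with NZB, in which a lupus-like nephritis comes on with age. Pristane, a hydrocarbon oil, was injected into the peritoneum at 9 weeks of age, and whole blood was taken 2, 4, 8, 12 and 14 weeks later, with untreated mice of the same age at each of these weeks. A further group, called spontaneous disease after the study's own description, held untreated SNF1 mice of week 36 that the study selected for high proteinuria. Each of the 11 groups held 8 mice, and the blood of every mouse was read on its own Affymetrix array (HT-MG-430 PM). Week 36 is an age whereas the other weeks count from the injection, and no healthy mice of that age are among the groups, so age and disease cannot be told apart in the spontaneous group.

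A dividing cell first copies its DNA and then shares it out. In S phase the MCM helicase opens the double helix, the clamp protein PCNA holds the polymerases on the template, and ribonucleotide reductase and thymidylate synthase supply nucleotides. In G2 phase and mitosis, cyclins A and B drive Cdk1, the Aurora and Polo kinases build the spindle, the Bub kinases hold back chromosome separation until every kinetochore is attached, and the anaphase-promoting complex then destroys the cyclins. The replication genes are classic targets of E2F factors, which are released when the retinoblastoma protein is phosphorylated. Many mitosis genes are instead switched on later through the CHR element, which the DREAM complex, B-Myb and FoxM1 use, together with CCAAT boxes bound by NF-Y. Most circulating leukocytes rest outside the cycle. Erythroid precursors keep dividing until late in their maturation, and young reticulocytes carry over RNA made before the nucleus was lost.

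The start regions of 3 mitosis and 4 replication genes on which the results turn are shown because they carry these elements differently. The sequences are from RefSeq on build GRCm38.p6 and run from 140 bases before the annotated transcription start to 20 bases after it, 5′ to 3′ on the strand of the gene. Capitals mark, on either strand, the CHR word TTTGAA, the NF-Y word CCAAT and 3 E2F words. The first E2F word is TTGGCGC, the second is TTCGCGC and the last is TTCCCGC, and the first can overlap the reverse of the second.
Ccnb2 (chr9:70421535-70421694, minus strand): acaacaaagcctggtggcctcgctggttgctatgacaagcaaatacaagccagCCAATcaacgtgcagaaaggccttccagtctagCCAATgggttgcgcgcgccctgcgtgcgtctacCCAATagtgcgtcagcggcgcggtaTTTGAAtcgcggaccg
Mki67 (chr7:135716360-135716519, minus strand): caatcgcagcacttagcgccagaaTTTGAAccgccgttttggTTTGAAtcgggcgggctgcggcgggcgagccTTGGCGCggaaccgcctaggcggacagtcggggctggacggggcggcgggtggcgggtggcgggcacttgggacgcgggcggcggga
Top2a (chr11:99024170-99024329, minus strand): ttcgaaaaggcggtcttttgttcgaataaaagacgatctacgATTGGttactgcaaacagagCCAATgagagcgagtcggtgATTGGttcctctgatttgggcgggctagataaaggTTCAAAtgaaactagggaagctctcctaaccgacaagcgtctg
Pcna (chr2:132253161-132253320, minus strand): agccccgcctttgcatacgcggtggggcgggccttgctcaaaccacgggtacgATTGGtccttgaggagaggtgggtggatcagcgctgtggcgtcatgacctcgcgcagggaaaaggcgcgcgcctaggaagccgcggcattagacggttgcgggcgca
Mcm6 (chr1:128359686-128359845, minus strand): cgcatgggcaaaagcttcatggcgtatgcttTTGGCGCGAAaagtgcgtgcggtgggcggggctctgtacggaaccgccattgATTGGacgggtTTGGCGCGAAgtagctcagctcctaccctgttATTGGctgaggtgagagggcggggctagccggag
Rrm1 (chr7:102441555-102441714, plus strand): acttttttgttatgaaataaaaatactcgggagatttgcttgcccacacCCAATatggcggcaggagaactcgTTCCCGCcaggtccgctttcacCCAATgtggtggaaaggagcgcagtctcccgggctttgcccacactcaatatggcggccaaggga
Rrm2 (chr12:24708114-24708273, plus strand): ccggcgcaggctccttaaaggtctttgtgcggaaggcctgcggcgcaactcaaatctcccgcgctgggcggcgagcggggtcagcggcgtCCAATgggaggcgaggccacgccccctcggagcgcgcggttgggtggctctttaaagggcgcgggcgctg

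The mitosis genes Ccnb2, Mki67 and Top2a each held a CHR word in the stretch shown, and none of the 4 replication genes did. Mcm6 and Rrm1 held an E2F word, while Pcna and Rrm2 held only CCAAT. A start region from 250 bases before to 50 after the start was found for 32 of the 38 genes. CHR stood in 16 of 22 mitosis promoters (72.7%), in 1 of 9 replication promoters (11.1%, Mcm2) and in 18.1% of all 27025 promoters of this length. An E2F word stood in 3 of 22 mitosis promoters (13.6%, Ccnb1, Cdk1 and Mki67), in 5 of 9 replication promoters (55.6%, Mcm3, Mcm5, Mcm6, Mcm7 and Rrm1) and in 8.21% of all promoters. CCAAT was common to both, in 86.4% of mitosis and 88.9% of replication promoters against 37.9% of all. A match is a description of these letters and does not show that a factor binds there.

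The values are log2 signals after robust multi-array averaging (RMA) by the authors. The interquartile range of an array's values was 2.74 to 3.78 over the 88 arrays, so the arrays did not share one distribution, and it averaged 3.25 ± 0.20 in pristane-treated mice of week 14 and 3.53 ± 0.20 in untreated mice of that week, the widest group (SD, n = 8 each). Markers of red cell precursors, neutrophils, B cells and T cells were all measured in the blood. Over the 5 weeks, mean log2 levels in pristane-treated and untreated mice were 8.22 and 7.78 for 20 erythroid markers (of 26 listed), 9.23 and 7.70 for 9 markers of mature neutrophils, 8.02 and 8.59 for 9 B cell markers, and 7.55 and 7.88 for 10 T cell markers. In whole blood a lower signal from fewer cells of a type and one from less RNA per cell cannot be told apart. 

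The comparison over the whole course, with 40 mice on each side, asked what pristane did to the cell cycle genes. Part of the mitosis genes rose with pristane while part of the replication genes fell. Averaged over the 5 weekly differences, 11 of 25 mitosis genes were higher and none was lower, and 1 of 10 replication genes was higher and 5 were lower (limma, adjusted p under 0.05 over all 45037 probe sets). Among all 37 cell cycle genes measured, 12 were higher and 5 lower, against 12.8% of all genes called higher and 13.7% called lower. None of the 37 passed with a change over 2-fold, as 0.994% of all genes did upward and 0.0702% downward. With the arrays first scaled to one median and interquartile range the split was 14 higher and 0 lower, so the falls among replication genes depended on how the arrays were scaled. The median change was 0.22 over the mitosis genes, -0.11 over the replication genes and 0.02 over all genes, on the log2 scale. In the scaled arrays these medians were 0.28, -0.02 and 0.03. Of the 20 erythroid markers, 15 were higher and 0 lower over the same 5 weeks, with a median of 0.39. With the erythroid mean of each array as a covariate, the count of mitosis genes called higher was 2 in place of 11. The shares of all genes called were not counted in the scaled and covariate fits.

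**Figure D1:**
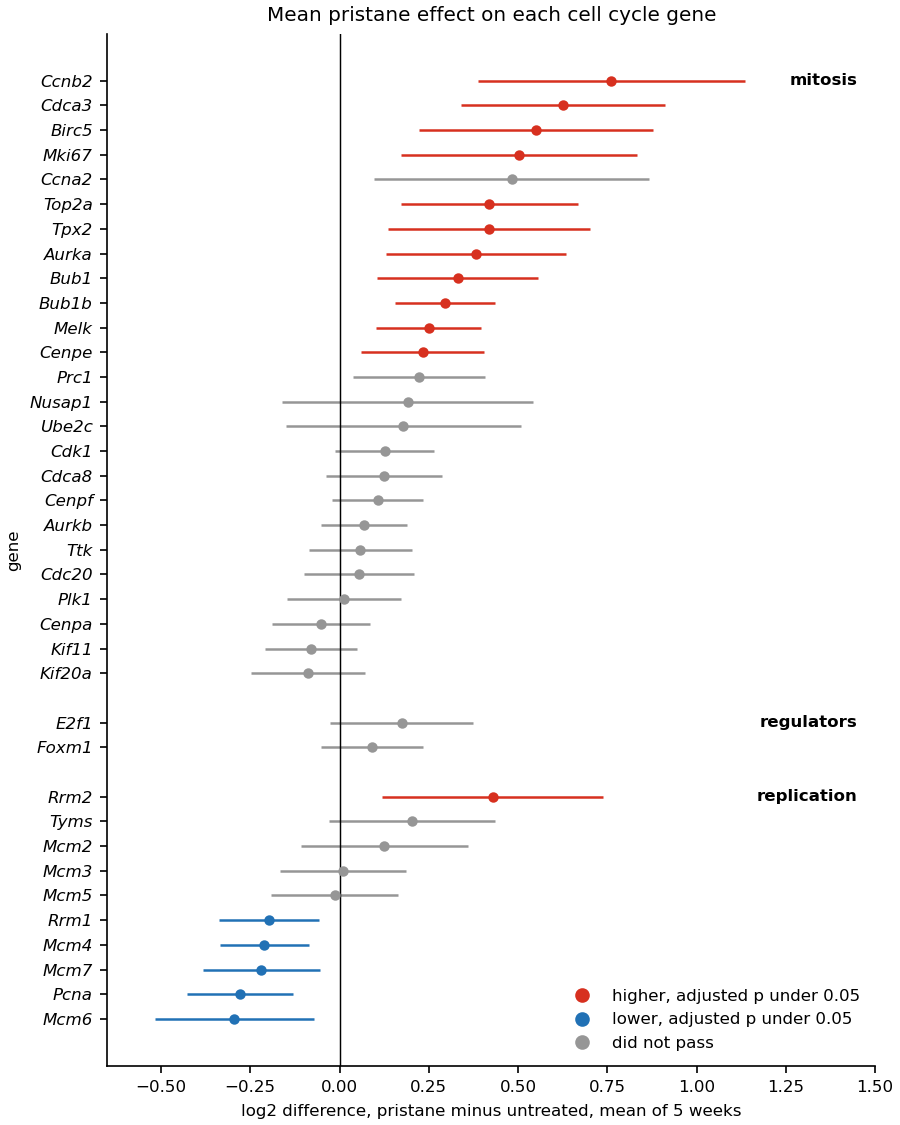
Mean pristane effect on each of the 37 cell cycle genes. Points are the log2 difference of pristane-treated minus untreated mice averaged over 5 weeks, bars are 95% confidence intervals (n = 40 mice each), and colours mark genes that passed the test. The 11 called mitosis genes lie right of 0 and 5 of the 6 called replication genes lie left of it, with Rrm2 the exception.

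Among regulators of mitotic entry, Ccnb2, the cyclin B2 gene, had signals of 4.38, 6.49 and 8.36 (lowest, median and highest of 40) in pristane-treated mice, against 4.08, 5.87 and 7.29 in untreated mice. The ranges overlapped widely, with the pristane-treated mice higher at each of these points. Ccnb2 was 1.69-fold higher (log2 difference 0.76, SE 0.19, limma, adjusted p = 0.00116). Cdca3, an adaptor that has Wee1 kinase degraded before mitosis, had 5.03, 6.46 and 8.22 in pristane-treated and 4.51, 5.96 and 7.22 in untreated mice. It was 1.54-fold higher (0.63, SE 0.14, adjusted p = 0.000474 by limma), the lowest adjusted p of the 37 genes. Ccna2, the cyclin A2 gene, differed by 0.48 and did not pass (adjusted p = 0.0574), and Cdk1, the kinase of both cyclins, differed by 0.13 (adjusted p = 0.192). Melk, a kinase of proliferating cells, was higher by 0.25 (adjusted p = 0.00776).

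Of 6 kinetochore and checkpoint genes, Bub1b, Bub1 and Cenpe rose. Bub1b, the gene of the checkpoint kinase BubR1, had 3.05, 3.69 and 4.49 in pristane-treated mice and 2.62, 3.44 and 3.90 in untreated mice, so its values overlapped over most of their range. The difference was 0.30 (SE 0.07, 1.23-fold, limma, adjusted p = 0.000682). Bub1, its partner kinase, was higher by 0.33 (adjusted p = 0.0228) and Cenpe, a kinesin that carries chromosomes to the spindle equator, by 0.23 (adjusted p = 0.0377). Of these, Bub1 and Bub1b had mean signals below the median of all deposited values (3.89), as did Aurka, Aurkb, Kif11, Cenpf, Ttk and Melk. Cenpa, the histone variant of centromeres, Cenpf and Ttk did not pass, with differences of -0.05, 0.11 and 0.06.

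Among spindle and chromosome genes, Mki67, whose product Ki-67 coats mitotic chromosomes and marks proliferating cells, had 6.64, 8.97 and 10.5 in pristane-treated mice, against 6.17, 8.50 and 9.96 in untreated mice. It was 1.42-fold higher (0.50, SE 0.17, limma, adjusted p = 0.0175), with widely overlapping groups. Birc5, the gene of the chromosomal passenger protein survivin, was 1.46-fold higher (0.55, adjusted p = 0.00826), and Top2a, the topoisomerase that untangles sister chromatids, 1.34-fold higher (0.42, adjusted p = 0.00767). Aurka, the centrosomal Aurora kinase, was higher by 0.38 (adjusted p = 0.0181), and Tpx2, which activates it on the spindle, by 0.42 (adjusted p = 0.0214). The other 9 spindle, exit and cytokinesis genes did not pass. Their differences lay between -0.09 for Kif20a and 0.22 for Prc1, a bundler of spindle midzone microtubules (adjusted p = 0.0703). Nusap1 and Ube2c, a spindle protein and the ubiquitin-conjugating enzyme of mitotic exit, differed by 0.19 and 0.18, Plk1 and Cdc20 by 0.01 and 0.05, and Kif11, the motor that separates spindle poles, by -0.08.

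**Figure D2:**
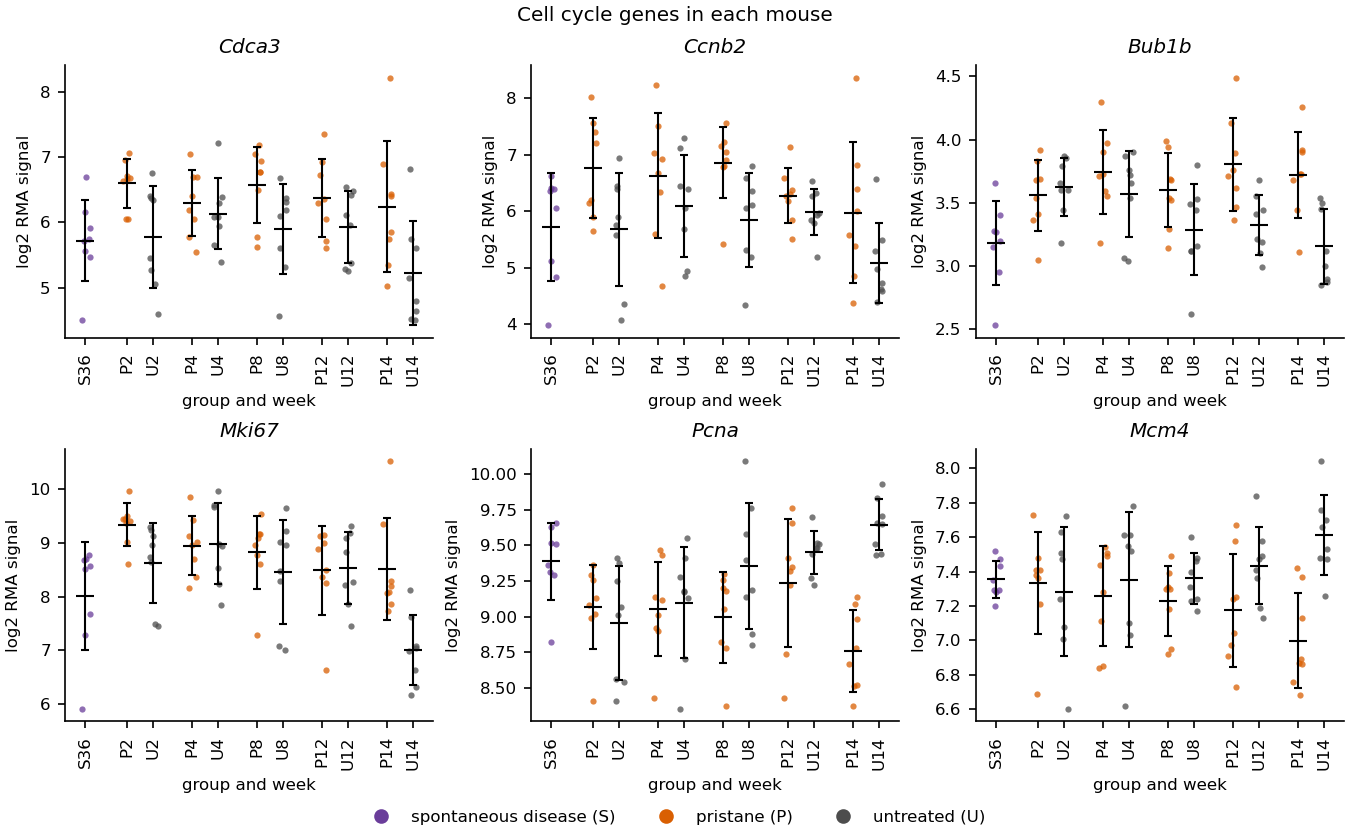
Log2 RMA signal of 6 cell cycle genes in each of the 88 mice, by group and week (S spontaneous disease, P pristane, U untreated). Dots are mice and black marks are the group mean ± SD (n = 8). Mki67 is lowest in untreated mice of week 14 (mean 7.0), and Pcna of pristane-treated mice of that week lies below all untreated mice of the same week.

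Of the 6 replication genes called, 5 fell. Pcna, the sliding clamp of DNA polymerases, had 8.37, 9.09 and 9.76 in pristane-treated mice (lowest, median and highest of 40), against 8.35, 9.40 and 10.1 in untreated mice. The medians lay apart while the ranges largely overlapped. Pcna fell by 0.28 on the log2 scale (SE 0.07, limma, adjusted p = 0.00264), which is 1.21-fold lower. Mcm4, a subunit of the replicative helicase, had 6.68, 7.26 and 7.73 in pristane-treated and 6.60, 7.47 and 8.04 in untreated mice, and fell by 0.21 (SE 0.06, adjusted p = 0.00746 by limma). The helicase subunit genes Mcm6 and Mcm7 fell by 0.29 and 0.22 (adjusted p = 0.0434 and 0.0404), while Mcm2, Mcm3 and Mcm5 differed by 0.13, 0.01 and -0.01 and did not pass.

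The subunits of ribonucleotide reductase parted. Rrm1, the large subunit, had 4.64, 5.56 and 6.24 in pristane-treated mice and 4.87, 5.82 and 6.37 in untreated mice, and fell by 0.20 (adjusted p = 0.029). Rrm2, the small subunit whose level follows S phase, had 3.93, 5.75 and 7.25 in pristane-treated mice and 3.60, 5.32 and 6.80 in untreated mice, and was 1.35-fold higher (0.43, SE 0.16, limma, adjusted p = 0.033). Tyms, thymidylate synthase, differed by 0.20 (adjusted p = 0.214). Of the transcription factors, E2f1 differed by 0.17 (adjusted p = 0.213) and Foxm1 by 0.09 (adjusted p = 0.382), and neither passed.

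Both directions depended on the fit. None of the 5 falls passed after scaling of the arrays to one median and interquartile range, where Pcna differed by -0.11 (adjusted p = 0.257), while 13 mitosis genes were higher there. With the interquartile range of each array in the model, 5 mitosis genes were higher and 2 replication genes lower. With the erythroid marker mean in its place, 2 mitosis genes were higher, 3 mitosis genes lower and 2 replication genes lower. The shares of all genes called were not counted in the scaled fit and these covariate fits. With weeks 2 to 12 alone, an alternative chosen after the data were seen, Rrm1 was the replication gene still lower (-0.24, adjusted p = 0.0255) and 6 mitosis genes were higher (Top2a, Ccnb2, Bub1b, Birc5, Melk and Cdca3), against 8.18% of all genes called higher and 9.33% lower. Without the array of pristane week 2, replicate 8, 2 replication genes were lower in place of 5. Over all 5 weeks 7 of 9 B cell markers and 6 of 10 T cell markers fell and 0 rose, against 13.7% of all genes called lower, and their part in the falls of replication genes was not tested.

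Other genes of the same processes were counted as well. Of 35 other replication genes, 11 were lower and 2 higher, with a median of -0.16. Of 40 other mitosis genes 10 were higher and 1 lower, with a median of 0.11. Over all genes 12.8% were called higher and 13.7% lower, with a median of 0.02. Fen1, the flap nuclease of Okazaki fragments, fell by 0.49 (SE 0.11, limma, adjusted p = 0.000297), Pold1, the catalytic subunit of polymerase delta, by 0.35 (adjusted p = 0.00112), and Dut, which removes dUTP, by 0.38 (adjusted p = 0.00165). Rfc2, a subunit of the clamp loader, fell by 0.27 (adjusted p = 0.00206). On the mitosis side Spc24, a kinetochore subunit, was higher by 0.52 (adjusted p = 0.000348), the Cdk-binding Cks1b by 0.46 (adjusted p = 0.00103) and the phosphatase gene Cdc25c by 0.25 (adjusted p = 0.00131). Smc4, a condensin subunit, was the exception and fell by 0.53 (SE 0.07, adjusted p = 1.41e-08).

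Of 12 genes of cell cycle inhibitors 1 was higher and 2 lower, and of 6 G1 cyclin and Cdk genes 1 was higher and 1 lower, against 12.8% and 13.7% of all genes. Cdkn2d (p19, an inhibitor of Cdk4 and Cdk6) was higher by 0.55 (SE 0.07, limma, adjusted p = 1.55e-10). Cdkn1b (p27, which holds lymphocytes at rest) fell by 0.47 (SE 0.08, adjusted p = 2.31e-06), and the antiproliferative gene Btg2 fell by 0.33 (adjusted p = 0.00295). The other 9 did not pass. Of the G1 genes, Cdk6 was higher by 0.35 (adjusted p = 0.00244) and Ccnd1 fell by 0.27 (adjusted p = 0.021).

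Week by week, no cell cycle gene passed the test at weeks 2, 4, 8 or 12 (8 mice each). In limma without adjustment, at p under 0.05, 7 were higher and 0 lower at week 2, 1 and 1 at week 4, 4 and 2 at week 8, and 3 and 3 at week 12. The shares of all genes past the same unadjusted threshold were 7.9% higher and 9.2% lower at week 2, 6.81% and 6.62% at week 4, 5.98% and 7.28% at week 8, and 7.88% and 7.32% at week 12. After adjustment, over all genes 2.29%, 2.18%, 1.85% and 2.7% were called higher and 1.29%, 0.801%, 0.778% and 1.06% lower at these weeks. The nearest to a call at week 2 was Top2a, with a mean of 6.33 in pristane-treated and 5.44 in untreated mice (0.89, limma, adjusted p = 0.0574). At week 8 it was Melk (means of 4.31 with pristane and 3.81 in untreated mice, 0.50, adjusted p = 0.105) and at week 12 Bub1b (means of 3.80 with pristane and 3.32 in untreated mice, 0.48, adjusted p = 0.0725). Ccnb2 differed by 1.08 at week 2 and by 1.02 at week 8, without passing (adjusted p = 0.155 and 0.247).

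Some genes kept one direction through the course. In all 5 weeks 10 of 25 mitosis genes had a difference above 0 and none had one below 0 throughout, against 12.7% and 11.9% of all genes. These 10 were Ccna2, Ccnb2, Bub1, Aurka, Birc5, Tpx2, Cenpe, Cenpf, Melk and Cdca3. Of 10 replication genes Rrm2 and Tyms were above 0 in each week and Mcm6 and Rrm1 below 0 in each. Pcna differed by 0.11 at week 2, -0.04 at week 4, -0.36 at week 8, -0.22 at week 12 and -0.89 at week 14. The differences of Mki67 at these weeks were 0.72, -0.04, 0.36, -0.04 and 1.51.

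**Figure D3:**
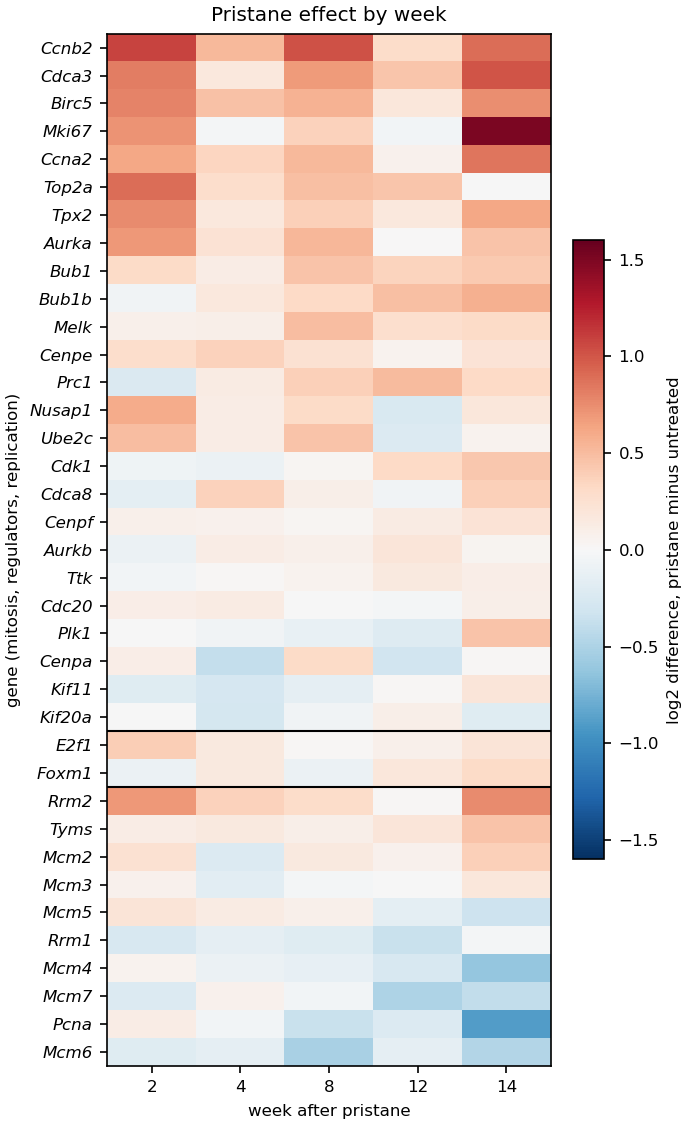
Log2 difference of pristane-treated minus untreated mice (colour scale) for each of 37 cell cycle genes at weeks 2, 4, 8, 12 and 14 after pristane (8 mice per group and week). Mitosis genes are at the top, the 2 regulators below them and replication genes at the bottom. Red prevails among the mitosis genes, and the deepest blue is Pcna at week 14 (-0.89).

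Week 14, the last week sampled after pristane, gave the single-week calls, in mice that are also part of the mean over the weeks. Among the 37 genes 4 were higher, each from the 25 mitosis genes, and 2 were lower, each from the 10 replication genes. Over all genes 12.7% were called higher and 9.72% lower, so the 37 genes together were not called more often than genes at large. Mki67 had 7.73, 8.14 and 10.5 in pristane-treated mice (lowest, median and highest of 8) and 6.17, 7.02 and 8.13 in untreated mice, and was higher by 1.51 (SE 0.37, limma, adjusted p = 0.0017). Only the highest of the untreated mice reached the range of the pristane-treated ones. Cdca3 had 5.03, 6.13 and 8.22 in pristane-treated mice and 4.51, 4.97 and 6.82 in untreated mice, and was 2.02-fold higher (1.01, SE 0.32, adjusted p = 0.0171). Without the array of pristane week 14, replicate 7, Cdca3 differed by 0.73 and the call was lost (adjusted p = 0.0961). That array had the highest erythroid mean of all arrays (9.36). Bub1b was higher by 0.57 (SE 0.16, adjusted p = 0.00539) and Cdk1 by 0.43 (adjusted p = 0.0411), a call that was lost on leaving out any of 8 arrays in turn.

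Pcna had 8.37, 8.72 and 9.14 in pristane-treated mice of week 14 and 9.43, 9.65 and 9.93 in untreated mice. The groups did not overlap, as was so for 1.27% of all genes in this direction. Pcna fell by 0.89 (SE 0.17, limma, adjusted p = 3.31e-05). Mcm4 had 6.68, 6.88 and 7.42 in pristane-treated and 7.26, 7.59 and 8.04 in untreated mice and fell by 0.62 (SE 0.14, adjusted p = 0.000615), with a narrow overlap. Of the wider lists, Slbp, which binds histone mRNA in S phase, fell by 1.14, Fen1 by 1.15 and the DNA polymerase alpha gene Pola1 by 0.81. The cyclin D2 gene Ccnd2 fell by 1.11, Btg2 by 0.91, the retinoblastoma-like gene Rbl1 by 0.82 and Cdkn1b by 0.75, while Cdkn2d was higher by 0.95. All of these passed the test. They were picked from their lists by the size of the moderated statistic, so they do not show what share of a list changed. The median over all genes was 0.12 at this week, and that over the 20 erythroid markers 0.90. Of these markers 8 were called higher and 0 lower, against 12.7% and 9.72% of all genes.

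The calls of rises at week 14 depended on which untreated mice served as control. Untreated mice of week 14 had the lowest mean of all 11 groups for 18 of 25 mitosis genes and for both regulators. Against untreated mice of week 12 in their place, Mki67 of the pristane-treated mice of week 14 differed by -0.02. Bub1b differed by 0.40 (limma, adjusted p = 0.0921), Cdca3 by 0.31 (adjusted p = 0.659) and Cdk1 by 0.23 (adjusted p = 0.426), all still above 0. None of the 37 genes was called higher while Pcna (-0.70, limma, adjusted p = 0.00196) and Mcm4 (-0.44, adjusted p = 0.0296) were still lower, against 6.53% of all genes called higher and 3.87% called lower. Within the untreated mice, week 14 against week 12 gave no call (0.0351% of all genes called in each direction), with 12 of 37 cell cycle genes lower at an unadjusted p under 0.05 and 0 higher, against 9.74% of all genes lower and 7.28% higher at that threshold. In that comparison 22 of 25 mitosis genes were below 0, with a median of -0.25 against -0.04 over all genes. Mki67 averaged 7.0 ± 0.65 in untreated mice of week 14 and 8.53 ± 0.67 in those of week 12 (SD, n = 8 each, -1.53, limma, adjusted p = 0.0656). Erythroid markers lay lower as well, all 20 of them, with a median of -0.76 and list means of 7.02 and 7.91 in the untreated mice of weeks 14 and 12.

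Within the pristane-treated mice, week 14 against week 12 gave no call either (2.2% of all genes called higher and 1.32% lower), and 0 of 37 genes were higher and 3 lower at an unadjusted p under 0.05, against 10.4% and 6.07% of all genes. Pcna was the nearest, with 8.76 ± 0.29 at week 14 and 9.24 ± 0.45 at week 12 (-0.48, limma, adjusted p = 0.0926). The difference between the pristane effects of weeks 14 and 12 was tested directly. It was 1.55 for Mki67 (adjusted p = 0.0971) and -0.67 for Pcna (adjusted p = 0.111), and none of the 37 genes passed, against 0.877% of all genes called higher and 1.28% called lower. Without adjustment 2 of the 37 were higher and 1 lower, against 9.12% and 7.69% of all genes.

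The mean log2 signal over the 25 mitosis genes gives one value per mouse. At weeks 2, 4, 8, 12 and 14 its group means were 5.65, 5.59, 5.61, 5.40 and 5.21 in pristane-treated mice and 5.34, 5.47, 5.32, 5.28 and 4.82 in untreated mice. The pristane-treated mean was above the untreated one at each week, by less than the range of the mice. Over the 10 replication genes, pristane-treated mice averaged 6.13 ± 0.21 and untreated mice 6.18 ± 0.16 (SD, n = 40 each). The gap of the mitosis mean over the replication mean averaged -0.64 ± 0.30 under pristane and -0.94 ± 0.38 without it. These means over chosen genes carry no test.

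**Figure D4:**
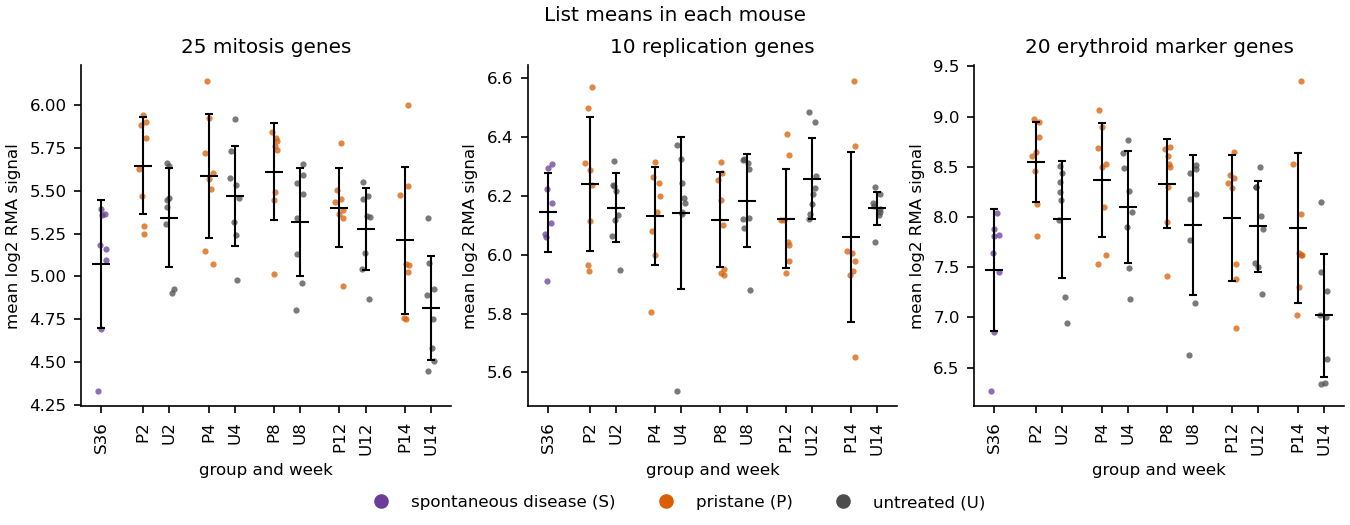
Mean log2 RMA signal over 25 mitosis genes, 10 replication genes and 20 erythroid marker genes in each of the 88 mice, by group and week (S spontaneous disease, P pristane, U untreated). Black marks are group mean ± SD (n = 8). The mitosis and erythroid panels share their shape, both lowest in untreated mice of week 14 (4.82 and 7.02), and the replication panel is flat.

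In spontaneous disease no cell cycle gene passed the test against the 5 untreated groups together (limma, 1.25% of all genes called higher and 0.164% lower), and 0 of 37 were higher and 2 lower at an unadjusted p under 0.05, against 8.42% and 8.11% of all genes. The mitosis mean was 5.07 ± 0.37 in the spontaneous group (n = 8) and 5.24 ± 0.36 in untreated mice (n = 40). Of 25 mitosis genes 20 were below 0, with a median of -0.20, and all 20 erythroid markers were below 0 with a median of -0.31. The median over all genes was -0.03. The direction turned with the control group, since against untreated mice of week 14 alone 20 of 25 mitosis genes were above 0, with a median of 0.18, and all 20 erythroid markers were above 0, with a median of 0.44. Against untreated mice of week 12 alone the mitosis median was -0.21. The lowest p was that of Cenpa, with 6.52 in spontaneous disease and 6.86 in untreated mice (-0.34, adjusted p = 0.156). Mki67 of the spontaneous group ran from 5.91 over a median of 8.53 to 8.78. Its group mean of 8.01 lay within the span of the untreated group means, of which the lowest was 7.0 and the highest 8.98.

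Pristane-treated mice of week 14 were also set against spontaneous disease. Pcna was lower with pristane, at 8.76 ± 0.29 against 9.39 ± 0.27 in spontaneous disease (SD, n = 8 each, -0.63, limma, adjusted p = 0.00693), and Bub1b was higher, at 3.72 ± 0.34 against 3.18 ± 0.33 (0.54, adjusted p = 0.0159). The other 35 cell cycle genes did not pass, against 5.59% of all genes called higher and 4.42% called lower. The Bub1b call was lost on leaving out spontaneous replicate 6 or pristane week 14 replicate 8 (adjusted p = 0.0671 and 0.0527). The arrays of this comparison also share the pristane-treated mice of the week 14 comparison above, so the results on Pcna are not independent of each other.

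The mitosis genes moved with the erythroid markers from mouse to mouse. After each array's deviation from its group mean was taken, all 25 mitosis genes correlated above 0 with the erythroid marker mean over the 88 arrays, with a median r of 0.42 against 0.07 over all genes. Pearson's r was 0.94 for Ccna2 and Nusap1, 0.93 for Mki67, 0.90 for Ube2c, 0.88 for Birc5, 0.87 for Ccnb2, 0.84 for Cdca3 and 0.77 for Tpx2. It was 0.31 for Top2a, 0.22 for Bub1b and 0.04 for Melk. The genes thus ran from nearly the full course of the erythroid mean to none of it. With the T cell and plasma cell marker means, all 25 correlated below 0. The medians were -0.34 and -0.37, against -0.09 and -0.10 over all genes. With the B cell mean 1 of the 25 correlated above 0, and the median was -0.27 against -0.10 over all genes. Of the 10 replication genes, Rrm2 (0.85), Mcm2 (0.60) and Tyms (0.37) correlated above 0 with the erythroid mean. The other 7 lay between -0.38 for Mcm5 and -0.04 for Mcm3. The median over all 10 was 0.27 with the T cell mean and 0.26 with the B cell mean, against -0.09 and -0.10 over all genes. E2f1 and Foxm1 had r of 0.61 and 0.49 with the erythroid mean. The arrays share RNA labelling and normalization, and these correlations are descriptions.

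**Figure D5:**
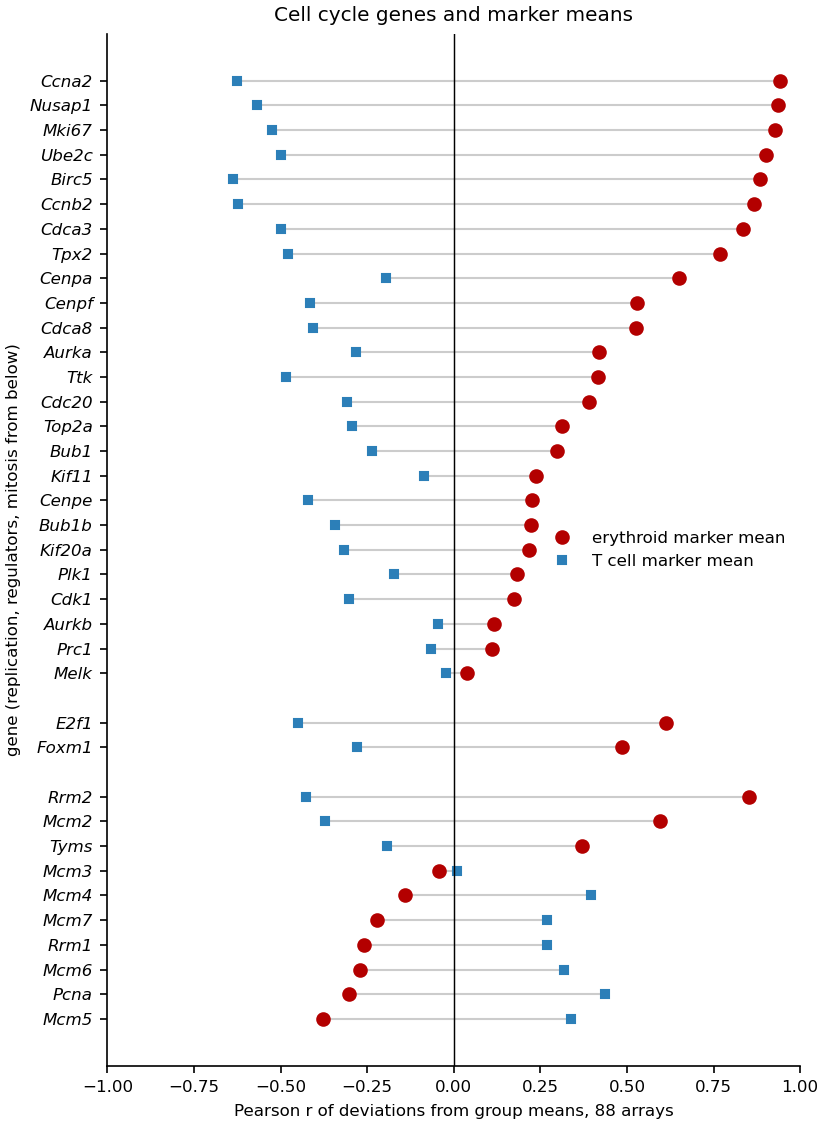
Pearson r of each cell cycle gene with the mean of 20 erythroid markers (circles) and of 10 T cell markers (squares), over deviations from the group means in 88 arrays. All 25 mitosis genes lie right of 0 for the erythroid mean, up to 0.94 for Ccna2. Of the replication genes Rrm2 (0.85), Mcm2 (0.60) and Tyms (0.37) do so.

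For the mean of the mitosis genes, r with the erythroid mean was 0.94 and Spearman's rho 0.90, and r was 0.94 again without the 2 arrays farthest from the median. Outside the cell cycle lists, the 10 genes most like the mitosis mean over the 88 arrays had r from 0.93 to 0.90. They were Rhd and Kel (red cell blood group genes), Ank1 (the red cell ankyrin), Hebp1 (a haem-binding protein), Nqo1, Ctsf, Arf5, Metap2, Pabpc4 and Rundc3a. Rhd and Kel are themselves on the erythroid marker list, so they are not a reading separate from the erythroid mean. The erythroid mean of an array ran from 6.90 to 9.36 in pristane-treated mice and from 6.34 to 8.77 in untreated mice.

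The mean pristane effect was also fitted with the erythroid marker mean of each array as a covariate. In that fit Bub1b (0.24, limma, adjusted p = 0.0109) and Melk (0.24, adjusted p = 0.0226) were higher, and Pcna (-0.20, adjusted p = 0.0482) and Mcm4 (-0.18, adjusted p = 0.042) were lower, as without the covariate. Cdca3 differed by 0.21 (adjusted p = 0.085) and Ccnb2 by 0.19 (adjusted p = 0.199), so their calls were lost. Mki67 and Rrm2 each differed by -0.03 and were not called. Nusap1 (-0.39, adjusted p = 6.32e-06), Ube2c (-0.34, adjusted p = 0.000649) and Cenpa (-0.20, adjusted p = 0.00622) passed as lower in this fit. Without the covariate none of these was called, and Nusap1 and Ube2c lay above 0. The covariate itself differed with pristane (8.22 against 7.78 in untreated mice). Fits with it therefore compare mice at an equal erythroid mean and do not give the whole pristane effect. At week 14 with the covariate, Mki67 was higher by 0.45 (adjusted p = 0.0336), Bub1b by 0.46 (adjusted p = 0.0412), and Pcna fell by 0.74 (adjusted p = 0.000773). The mitosis genes Nusap1 (-0.96, adjusted p = 1.45e-06) and Ube2c (-0.97, adjusted p = 1.99e-05) were called lower there, Cdca3 (0.18) and Cdk1 (0.34) were not called, and the median over the 25 mitosis genes was -0.0022.

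Other probe sets gave a second reading for 23 of the 37 genes. Of 31 such sets, 24 had the same sign as the set used in the mean over the 5 weeks and 7 the opposite one. Of the 31, 7 passed as higher and 1 as lower, against 12.8% and 13.7% over all genes. Those shares rest on 1 probe set per gene, the one with the highest mean, whereas the 31 are dimmer sets. A second set was called in the same direction for Rrm2 (0.49), Tpx2 (0.36), Bub1 (0.22) and Bub1b (0.21), while another set of Bub1b differed by -0.07. The other set of Cenpe differed by -0.13 (limma, adjusted p = 0.0932), against 0.23 by the set used. Cdca8 (0.39), Foxm1 (0.22) and E2f1 (0.21), which did not pass by the set used, were called higher by another set. A set of Cenpf was lower (-0.26, adjusted p = 0.00395) where the set used differed by 0.11. The other 2 sets of Top2a differed by 0.04 and 0.05 and were not called, and those of Mcm7 and Rrm1 differed by -0.18 and -0.07, also not called. Pcna, Mcm4, Mcm6, Mki67, Ccnb2, Cdca3, Birc5 and Melk were among the 14 genes with 1 probe set.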

How the data were processed

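RNA from whole blood of 88 mice was labelled by NuGEN Ovation amplification and hybridised to 1 array each. Per the study's methods, the authors normalized the scans by RMA in R 2.11.1 and deposited 1 table of log2 values, with 45141 probe sets in 88 columns, all of which matched a sample. The submitters' processing notes also name Partek. Values ran from 0.736 to 13.8, and the number of arrays per group limits the precision. The methods describe 2 longitudinal experiments, and the labels do not give the experiment of a mouse, so it was not modelled.

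The 104 control probe sets were left out. The array annotation assigned 28898 probe sets to 1 gene, 551 to several and 15588 to none. A group-means model of the 11 groups was fitted to all arrays with limma 3.58.1 (R 4.3.3), with Benjamini-Hochberg adjustment over 45037 probe sets within each comparison, 2-sided, and calls at an adjusted p under 0.05. The script was tested on simulated data. The p-values test differences of group means against the spread between mice within groups. That spread was estimated over all 11 groups and moderated across probe sets.

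All genes chosen by symbol may be named, and those called are given first. Of each further list at most the 4 genes with the largest moderated statistic are named, with the 10 genes most like the mitosis mean. The genes and lists were chosen with earlier results of these data known. Marker lists were also measured for other cells. In the mean over the weeks, 9 of 9 mature and 11 of 13 immature neutrophil, 5 of 9 platelet, 2 of 10 plasma cell, 2 of 5 monocyte and 2 of 6 progenitor genes were called higher. Called lower were 7 of 9 B cell, 6 of 10 T cell, 6 of 8 natural killer cell, 1 plasma cell and 1 monocyte gene. The shares over all genes were 12.8% called higher and 13.7% called lower. Alternatives changed the array scaling, covariates, weights, probe sets, variance prior, arrays in the fit, control group, replicate block and adjustment, and left out each array in turn. Tables were made with pandas 2.3.3 and numpy 2.4.6, correlations with scipy 1.17.1 and plots with matplotlib 3.10.9.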

Additional observations from a re-analysis of the deposited data

Results flagged for a closer look

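In groups of 8 mice, the highest or lowest value was compared with its nearest neighbour, and 17 of 220 gene and group pairs tested had 1 mouse farther off than Dixon's limit (7.73%, where chance alone gives about 1 in 20). Low outlying values are given first. Pcna was 8.82 in spontaneous replicate 8 (nearest 9.29) and 8.41 in pristane week 2 replicate 8 (nearest 8.99). Mki67 was 6.64 in pristane week 12 replicate 3 (nearest 8.25). In pristane week 8 replicate 6, Mki67 was 7.29 (nearest 8.61), Ccnb2 5.42 (nearest 6.78) and Birc5 6.39 (nearest 8.06), and the erythroid mean of that array, 7.41, was the lowest of its group. Mcm6 was 3.88 in pristane week 8 replicate 8 (nearest 4.90) and 3.33 in pristane week 4 replicate 8 (nearest 5.07). Rrm1 was 5.07 in pristane week 8 replicate 5 (nearest 5.43), Aurka 2.69 in untreated week 14 replicate 5 (nearest 3.07), and the replication mean 5.54 in untreated week 4 replicate 8 (nearest 6.14).

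Among high values, Cdk1 was 5.33 in pristane week 4 replicate 4 (nearest 4.72), Top2a 7.62 in pristane week 12 replicate 1 (nearest 6.43) and Melk 5.24 in pristane week 14 replicate 5 (nearest 4.11). Rrm1 was 6.27 in spontaneous replicate 3 (nearest 5.84). In untreated week 4 replicate 6, Aurka was 5.11 (nearest 3.66) and Tpx2 6.03 (nearest 4.99), and that array had the highest erythroid mean of its group, 8.77. The part of the erythroid markers in these values was not tested.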

How the results depend on the processing

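The counts below are of cell cycle genes called by limma. Shares of all genes called under the same alternatives were not counted, apart from those given above. In the mean over 5 weeks, where 12 were higher (11 mitosis) and 5 lower, all of these replication genes, 0 were lower (0 replication) with the arrays scaled to one median and interquartile range. With quantile normalization 2 were lower, both replication genes. With each array's interquartile range as a covariate, 5 were higher (5 mitosis) and 2 lower (2 replication). With the erythroid mean as a covariate, 2 mitosis genes were the 2 higher and 2 replication genes lower, and Mki67 and Rrm2 reversed (-0.034 and -0.033). Weeks 2 to 12, an alternative chosen after seeing the data, gave 6 higher (6 mitosis) and 1 lower (1 replication). Leaving out 1 array gave 10 to 13 higher, 2 to 5 lower, 10 to 12 mitosis genes higher and 2 to 5 replication genes lower. Over these, Mcm7 lost its call without any of 29 of the 80 arrays, Mcm6 without 28, Cenpe without 16, Rrm2 without 6 and Rrm1 without 1, pristane week 2 replicate 8.

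At week 14, where 4 were higher and 2 lower, 1 was lower in the scaled arrays, 1 higher with the range covariate, 2 higher and 4 lower with the erythroid covariate, 9 higher with the mean of a gene's probe sets and 2 higher with only the compared arrays. Against untreated week 12, 0 were higher and Mki67 reversed (-0.021). Leaving out 1 array gave 2 higher (without pristane week 14 replicate 7) to 7 (without replicate 2), and 2 lower throughout.

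Where no gene was called, a few alternatives gave calls. At week 2, 1 was higher with either array scaling, array weights or brighter probe sets, and 4 with the range covariate. At week 4, 1 was lower with the erythroid covariate. At week 8, 1 was higher with quantile normalization, and at week 12, 1 with array weights or the mean of probe sets. Leaving out 1 array gave 0 to 1 higher at weeks 2, 8 and 12. In spontaneous disease 1 was lower with array weights. In untreated week 14 against week 12, 12 were lower with array weights, 2 with only the compared arrays, 1 with quantile normalization, the mean of probe sets or brighter probe sets, and 0 to 3 on leaving out 1 array. In pristane week 14 against week 12, 1 was lower with quantile normalization or the range covariate, 4 with the erythroid covariate, and 0 to 1 on leaving out 1 array. The difference of the effects gave 1 lower with array weights and 0 to 1 on leaving out 1 array.

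Pristane week 14 against spontaneous disease, with 1 higher and 1 lower, gave 0 lower in the scaled arrays, 0 higher and 3 lower with the range covariate, 4 lower with the erythroid covariate, 3 higher with the mean of probe sets, 0 higher with only the compared arrays, and 0 to 2 higher and 1 to 2 lower on leaving out 1 array. The cause of these changes was not tested. Replicate numbers were not taken as pairs of mice, and the labels do not say what the numbers stand for. Of 40 same-numbered pairs 11 correlated over 0.1, with r from -0.24 to 0.55. With the replicate block 13 were higher and 5 lower in the mean. Replicate 8 had the lowest array weight in most groups, such as 0.30 in pristane week 8 and 0.36 in pristane week 2. In pristane weeks 12 and 14 and untreated week 8 another array had the lowest. Several of the low outlying replication values came from replicate 8 arrays, and the part of array quality in them was not tested. Over single genes, 231 values under the other alternatives kept their direction and call, 58 lost the call and 3 reversed. Among fits that left out 1 array, 1397 kept both and 91 lost the call. Dim probe sets limit the 8 genes below the median signal.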
